A study of Rattus norvegicus with 12 samples.

Results

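Genes of the ATF4 and CHOP stress response and of the unfolded protein response were followed in rat cerebral cortex after embolic stroke, thrombolysis and acupuncture. They were chosen by name, as Atf4, Ddit3 (which encodes CHOP), Trib3, Chac1, Asns, Sesn2, Ppp1r15a, Xbp1, Herpud1 and Ddit4, and all 10 were found among the 17268 gene symbols of the count table. RNA of the cerebral cortex of adult male Sprague Dawley rats was sequenced in 12 libraries, with 3 libraries in each of 4 groups. The labels give each library a group and a number and do not name the rat. Sham rats had the carotid dissection without a clot, and Model rats had a blood clot from a donor rat injected into the middle cerebral artery and no further treatment. rt-PA rats had the same clot and then tissue plasminogen activator, a clot-dissolving enzyme, by the tail vein at 6 h. rt-PA+Acu rats had the clot, manual needling of the acupoints GV26 and PC6 at 2 h, and rt-PA at 6 h. There was no group with acupuncture alone, and the time at which the sequenced tissue was taken is not given in the sources used here.

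When unfolded protein collects in the endoplasmic reticulum, or when amino acids run short, kinases phosphorylate the translation factor eIF2α. Most protein synthesis then slows, while the mRNA of the transcription factor ATF4 is translated more, so that ATF4 protein can change without a change of its mRNA. ATF4 raises the transcription of CHOP, a factor linked to cell death under lasting stress, and of genes for amino acid supply and redox balance, while the IRE1 and ATF6 arms of the unfolded protein response, through XBP1 and cleaved ATF6, raise chaperones and the machinery that clears misfolded protein. In the ischaemic brain this response has been described in neurons and glia around the lesion.

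The bases before the transcription start of 4 members are shown because they hold a sequence recognised by ATF4 with a C/EBP partner or by the unfolded protein response, and because these members differed in how far they moved. RefSeq promoter sequences of the GRCr8 build, which is not the build to which the reads were aligned, were matched by symbol for 10 of 10 members and searched on both strands, from 250 bases before the start to 50 bases from the start on. The ATF4 and C/EBP sequence TGATGNAA was found in 3 of the 10 members and in 4.16% of 27457 promoters. It lay at bases -21 to -14 of Trib3, -167 to -160 of Chac1 and -184 to -177 of Herpud1, each time on the strand opposite to the gene, and is in capitals below. The ER stress element, CCAAT and CCACG with 9 bases of any kind between them, was found in 1 member, at bases -65 to -47 of Xbp1, and in 0.0765% of promoters. The core of the unfolded protein response element, TGACGTGG, was found in 0 members and in 0.681% of promoters. None of the 3 sequences overlapped another in these members. Other forms of these elements were not searched, so a member without a match may still hold one. The 250 bases before each start are printed in the direction of the gene, for Trib3 from chr3:161275534-161275783 on the minus strand, Chac1 from chr3:126795881-126796130 on the plus strand, Herpud1 from chr19:10614708-10614957 on the minus strand and Xbp1 from chr14:84604373-84604622 on the plus strand.
Trib3: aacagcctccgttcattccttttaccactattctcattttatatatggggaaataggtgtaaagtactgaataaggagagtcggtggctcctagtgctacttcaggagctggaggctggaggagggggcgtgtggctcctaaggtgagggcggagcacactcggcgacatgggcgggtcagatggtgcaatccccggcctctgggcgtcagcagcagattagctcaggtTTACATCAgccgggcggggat
Chac1: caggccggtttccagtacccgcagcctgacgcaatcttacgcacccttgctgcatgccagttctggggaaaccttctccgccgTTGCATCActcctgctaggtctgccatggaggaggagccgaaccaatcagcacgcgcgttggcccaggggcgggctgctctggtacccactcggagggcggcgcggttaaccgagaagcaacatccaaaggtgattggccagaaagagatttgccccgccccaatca
Herpud1: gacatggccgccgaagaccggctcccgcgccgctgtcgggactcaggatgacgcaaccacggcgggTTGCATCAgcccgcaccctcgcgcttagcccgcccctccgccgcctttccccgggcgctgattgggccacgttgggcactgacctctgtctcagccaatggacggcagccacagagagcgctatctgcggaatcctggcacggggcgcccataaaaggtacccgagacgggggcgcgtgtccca
Xbp1: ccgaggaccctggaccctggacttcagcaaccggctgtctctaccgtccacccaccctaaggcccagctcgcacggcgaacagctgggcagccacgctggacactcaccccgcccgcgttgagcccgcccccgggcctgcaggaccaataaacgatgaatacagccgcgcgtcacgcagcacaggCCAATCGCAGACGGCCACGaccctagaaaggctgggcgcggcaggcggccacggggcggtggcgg

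The libraries held 11678450 to 13616935 counts each. Levels are in CPM, which are counts per 1000000 counts of a library size scaled by TMM, with factors between 0.9476 and 1.077, and 3 counts stood for 0.2081 to 0.2619 CPM. Groups were compared pair by pair, 6 libraries at a time, by the quasi-likelihood test of edgeR over all genes that passed its filter on low counts, with Benjamini-Hochberg adjustment. A differentially expressed gene (DEG) combined an adjusted p below 0.05 with a log2 fold change above 1 or below -1, and a gene with an adjusted p under 0.05 is said to have risen or fallen. Markers of neurons, astrocytes and oligodendrocytes were abundant in every library. In bulk tissue, fewer cells of a type and less RNA per cell cannot be told apart.

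Atf4 and Ddit3, the transcription factors of the pathway, were high in Model and rt-PA and close to Sham in rt-PA+Acu. Atf4 was at 163, 188.5 and 171 CPM in the Sham libraries, 447, 419.5 and 493 CPM in Model, 442, 373 and 399 CPM in rt-PA, and 142, 144 and 180.4 CPM in rt-PA+Acu. Each Model and rt-PA library lay above each Sham and rt-PA+Acu library, with a gap between 188.5 and 373 CPM that held no library. Atf4 rose 2.62-fold in Model vs Sham (log2 fold change 1.39 ± 0.096 SE, n = 3 and 3, edgeR adjusted p = 2.60e-05). It fell 2.60-fold in rt-PA+Acu relative to rt-PA (-1.38 ± 0.14, edgeR adjusted p = 0.00123). Ddit3 was at 13.1, 15.4 and 11.9 CPM in Sham, 44.1, 32.2 and 48.2 CPM in Model, 39.7, 36.0 and 29.1 CPM in rt-PA, and 14.2, 9.95 and 18.4 CPM in rt-PA+Acu. Its high and low groups did not overlap either, although rt-PA+Acu replicate 3 stood above all Sham libraries. Ddit3 rose 3.10-fold in Model vs Sham (1.63 ± 0.18, edgeR adjusted p = 0.000192) and fell 2.46-fold in rt-PA+Acu relative to rt-PA (-1.30 ± 0.24, adjusted p = 0.007). Both genes were DEGs in these comparisons under every alternative tried, including the omission of each library in turn.

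**Figure D1:**
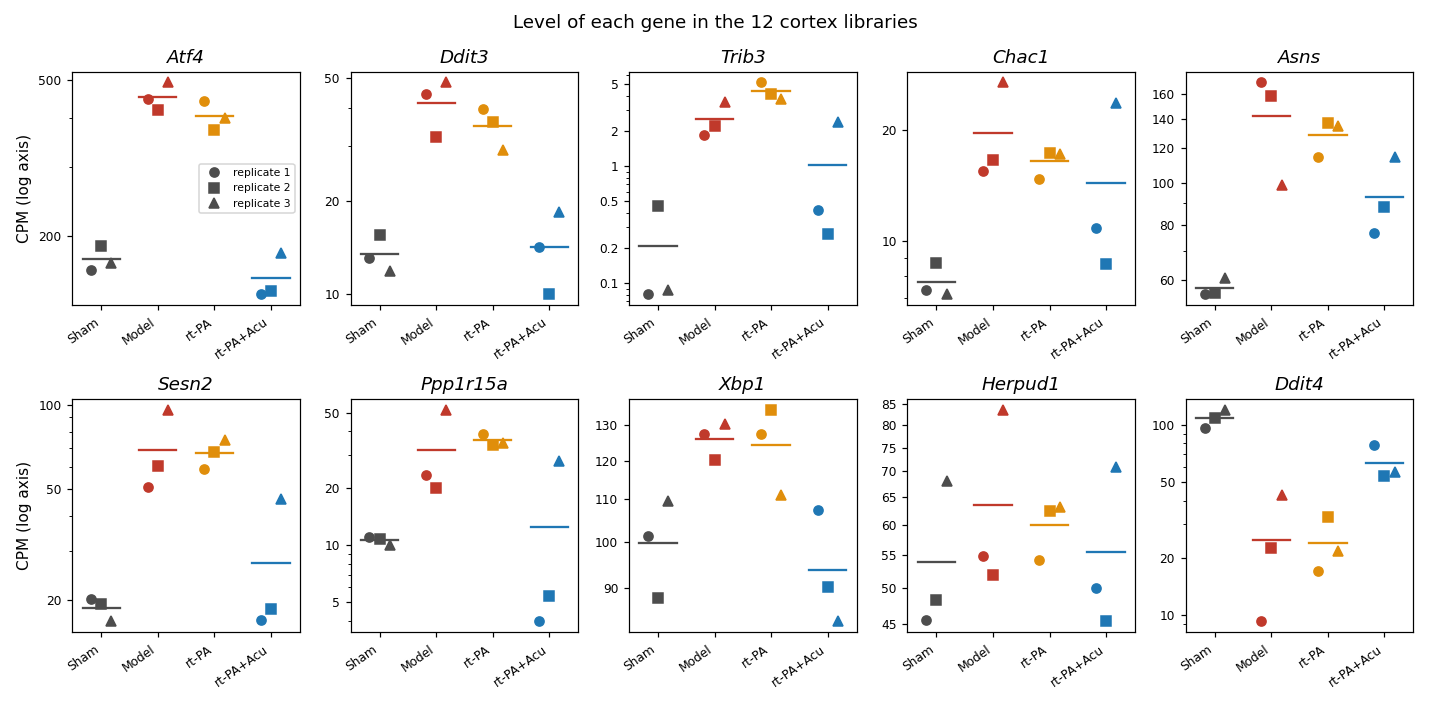
Level of each of the 10 genes in the 12 libraries, in CPM on a log axis that differs between panels and does not start at 0; circles, squares and triangles are replicates 1, 2 and 3, and the line is the mean of the 3 libraries. Atf4 and Ddit3 were low in all 3 rt-PA+Acu libraries, whereas Trib3, Chac1, Sesn2 and Ppp1r15a were low in 2 and high in replicate 3.

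Trib3 and Ppp1r15a act as brakes on the pathway. Trib3 encodes a pseudokinase that CHOP and ATF4 induce and that restrains ATF4, and Ppp1r15a encodes GADD34, which directs a phosphatase to eIF2α. Trib3 was scarce, with 1, 6 and 1 counts in the Sham libraries, or 0.0806, 0.459 and 0.0873 CPM. It was at 1.83, 2.20 and 3.55 CPM in Model, 5.20, 4.17 and 3.76 CPM in rt-PA, and 0.421, 0.262 and 2.39 CPM in rt-PA+Acu, the last of which stood for 32 counts against 5 and 3 in the other two. The 6 Model and rt-PA libraries lay above all Sham libraries, and rt-PA+Acu replicate 3 lay within the Model range. Trib3 rose in Model vs Sham with the largest fold among the members (11.3-fold, log2 3.50 ± 0.63, edgeR adjusted p = 0.00204), a value that rests on 8 counts in Sham and that ran from 3.12 to 4.75 with each library left out, the highest being without Sham replicate 2. In rt-PA+Acu relative to rt-PA its log2 fold change was -2.05 ± 0.69 (edgeR adjusted p = 0.0529), and without rt-PA+Acu replicate 3 it was -3.63 (adjusted p = 0.00166). DESeq2 called it with all libraries (adjusted p = 0.0159).

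Ppp1r15a was at 11.03, 10.8 and 10.04 CPM in Sham, 23.4, 19.98 and 52.0 CPM in Model, 38.9, 33.7 and 34.8 CPM in rt-PA, and 3.96, 5.41 and 28.0 CPM in rt-PA+Acu. Replicates 1 and 2 of rt-PA+Acu were the 2 lowest of all 12 libraries, below Sham, while replicate 3 was above 2 of the 3 Model libraries. Ppp1r15a rose 3.00-fold in Model vs Sham (log2 1.59 ± 0.34, edgeR adjusted p = 0.00481) and 3.32-fold in rt-PA vs Sham (1.73 ± 0.12, adjusted p = 2.79e-05). The mean of rt-PA+Acu (12.5 CPM ± 13.5 SD, n = 3) was near that of Sham (10.6 CPM ± 0.517 SD, n = 3) but described none of its libraries. The log2 fold change of rt-PA+Acu relative to rt-PA was -1.50 ± 0.65 (edgeR adjusted p = 0.11). It was -2.92 without rt-PA+Acu replicate 3 (edgeR adjusted p = 0.000428). Against Sham, the log2 fold change of rt-PA+Acu was 0.25 ± 0.64 (edgeR adjusted p = 0.851), and it turned to -1.19 (adjusted p = 0.0217) without that library.

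Asns, Chac1 and Sesn2 are ATF4 target genes of amino acid and redox metabolism. Asns encodes asparagine synthetase, Chac1 an enzyme that breaks down glutathione, and Sesn2 a leucine sensor that restrains mTORC1. Sesn2 was at 20.1, 19.3 and 16.8 CPM in Sham, 50.8, 60.3 and 95.9 CPM in Model, 59.0, 67.5 and 75.0 CPM in rt-PA, and 16.9, 18.5 and 46.0 CPM in rt-PA+Acu. Replicates 1 and 2 of rt-PA+Acu lay inside the Sham range, and replicate 3 lay between the Sham and the Model libraries. Sesn2 rose 3.69-fold in Model vs Sham (log2 1.88 ± 0.23, edgeR adjusted p = 0.00029) and fell 2.46-fold in rt-PA+Acu relative to rt-PA (-1.30 ± 0.37, adjusted p = 0.0301). The latter call was lost when any of the 3 rt-PA libraries, or rt-PA+Acu replicate 1 or 2, was left out (edgeR adjusted p = 0.0602 to 0.0981), and without rt-PA+Acu replicate 3 the log2 fold change was -1.92 (adjusted p = 0.000597).

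Chac1 was at 7.33, 8.71 and 7.16 CPM in Sham, 15.4, 16.5 and 26.8 CPM in Model, 14.7, 17.3 and 17.2 CPM in rt-PA, and 10.8, 8.64 and 23.6 CPM in rt-PA+Acu. Replicate 3 of rt-PA+Acu was above all 3 rt-PA libraries, and replicate 2 was inside the Sham range. Chac1 rose 2.54-fold in Model vs Sham (log2 1.34 ± 0.24, edgeR adjusted p = 0.00188). In rt-PA+Acu relative to rt-PA its log2 fold change was -0.18 ± 0.36 (edgeR adjusted p = 0.711), and -0.75 (adjusted p = 0.0202) without rt-PA+Acu replicate 3. Asns was at 55.7, 56.2 and 60.8 CPM in Sham, 169.7, 158 and 98.9 CPM in Model, 114.5, 137 and 135 CPM in rt-PA, and 76.9, 88.1 and 114 CPM in rt-PA+Acu. All 9 libraries with a clot were above all Sham libraries, and for this gene Model replicate 3 was the lowest of its group. Asns rose 2.48-fold in Model vs Sham (1.31 ± 0.19, edgeR adjusted p = 0.000658). The log2 fold change of rt-PA+Acu relative to rt-PA was -0.46 ± 0.16 (edgeR adjusted p = 0.0625), or -0.64 (adjusted p = 0.0102) without rt-PA+Acu replicate 3. It was above Sham in rt-PA+Acu (1.62-fold, log2 0.69 ± 0.15, edgeR adjusted p = 0.0418), which no longer passed without any 1 Sham library or without rt-PA+Acu replicate 2 (adjusted p = 0.0833 to 0.179).

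Xbp1 and Herpud1, which belong to the endoplasmic reticulum side of the response, moved little. Xbp1 encodes the factor that IRE1 activates by splicing its mRNA, and gene counts do not separate the spliced from the unspliced form. It was at 101, 88.1 and 109.5 CPM in Sham, 127, 120.3 and 130.3 CPM in Model, 127, 135 and 111 CPM in rt-PA, and 107, 90.3 and 83.5 CPM in rt-PA+Acu. Each library of Model and rt-PA was above each of Sham and rt-PA+Acu, by as little as 111 against 109.5 CPM. Xbp1 rose 1.27-fold in Model vs Sham (log2 0.35 ± 0.10, edgeR adjusted p = 0.0194) and fell 1.33-fold in rt-PA+Acu relative to rt-PA (-0.41 ± 0.13, adjusted p = 0.0439). Without Sham replicate 2 the rise no longer passed (edgeR adjusted p = 0.0747). The fall no longer passed without any 1 rt-PA library or without rt-PA+Acu replicate 2 or 3 (edgeR adjusted p = 0.0563 to 0.135).

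Herpud1, whose product helps to remove misfolded protein from the endoplasmic reticulum, was at 45.6, 48.2 and 68.0 CPM in Sham, 54.9, 51.9 and 83.7 CPM in Model, 54.3, 62.4 and 63.1 CPM in rt-PA, and 50.1, 45.4 and 71.0 CPM in rt-PA+Acu. The 4 groups overlapped, and replicate 3 was the highest library in each of them. No difference of Herpud1 was detectable at this number of replicates, with log2 fold changes of 0.24 ± 0.21 in Model vs Sham (edgeR adjusted p = 0.367) and -0.11 ± 0.18 in rt-PA+Acu relative to rt-PA (adjusted p = 0.668). Of the 3 members whose promoter holds the ATF4 and C/EBP sequence printed above, Trib3 and Chac1 rose with stroke and Herpud1 was not shown to change. The sequence is a description of these windows and not evidence of binding.

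Ddit4 encodes REDD1, an inhibitor of mTORC1 that ATF4, hypoxia and glucocorticoids are known to induce, and it fell after the clot, where Atf4 and Ddit3 rose. It was at 95.8, 109 and 120.2 CPM in Sham, 9.24, 22.6 and 43.0 CPM in Model, 17.0, 32.8 and 21.8 CPM in rt-PA, and 78.2, 54.1 and 56.8 CPM in rt-PA+Acu. Libraries with acupuncture lay between the others, above every Model and rt-PA library and below every Sham library. Ddit4 fell 4.35-fold in Model vs Sham (log2 -2.12 ± 0.43, or -2.77 without Model replicate 3, edgeR adjusted p = 0.00368 and 0.000181) and rose 2.64-fold in rt-PA+Acu relative to rt-PA (1.40 ± 0.26, adjusted p = 0.00697). It was still 1.72-fold lower in rt-PA+Acu than in Sham (-0.79 ± 0.16, edgeR adjusted p = 0.0316), which no longer passed without any 1 Sham library or without rt-PA+Acu replicate 2 (adjusted p = 0.0716 to 0.132).

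In Model vs Sham, 7 of the 10 members were DEGs with a rise and 1, Ddit4, with a fall. Among the 12884 genes tested, 9.43% were DEGs with a rise and 12% with a fall. With Xbp1, 8 members rose at an adjusted p under 0.05, against 27.3% of all genes. The median log2 fold change of the members was 1.37, beside 0.01 over all genes tested. In rt-PA vs Sham the counts were again 7 higher and 1 lower, beside 11% and 11.6% of all genes, with Trib3 at 4.27 ± 0.53 (edgeR adjusted p = 0.000392), or 5.54 without Sham replicate 2, and Ddit4 at -2.20 ± 0.23 (adjusted p = 0.000156).

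The comparison of rt-PA with Model asks what late thrombolysis adds to the clot. Of the 10 members, 0 were DEGs and 0 had an adjusted p under 0.05 with edgeR, and DESeq2 called 0 members. Across all 12941 genes tested, edgeR called 0 (0%) and DESeq2 called 74. The members' edgeR adjusted p ran from 0.487 to 0.984. Trib3 was the member with an unadjusted p under 0.05, at 1.73-fold (log2 0.79 ± 0.33, edgeR unadjusted p = 0.043, adjusted p = 0.487), and its 3 rt-PA libraries lay above its 3 Model libraries. For Atf4 and Ddit3 the log2 fold changes were -0.16 ± 0.11 and -0.25 ± 0.18.

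Acupuncture before rt-PA was compared with rt-PA alone. Atf4, Ddit3 and Sesn2 were DEGs with a fall and Ddit4 was a DEG with a rise, beside 8.16% of all genes with a fall and 7.17% with a rise. With Xbp1, 4 members fell at an adjusted p under 0.05, against 17.7% of all genes, and the median of the 10 members was -0.88, beside -0.003 over all genes. The number of DEGs was 4 with all libraries and 6 without rt-PA+Acu replicate 3, when Trib3 and Ppp1r15a were added. In that fit 10.3% of all genes were DEGs with a fall, in place of 8.16%. In rt-PA+Acu vs Model, Atf4 (-1.54 ± 0.14, edgeR adjusted p = 0.000692), Ddit3 (-1.55 ± 0.25, adjusted p = 0.004) and Sesn2 (-1.34 ± 0.41, adjusted p = 0.0381) were DEGs with a fall, beside 6.62% of all genes. The call of Sesn2 was lost without Model replicate 2 or 3 or rt-PA+Acu replicate 1 or 2 (edgeR adjusted p = 0.0743 to 0.123). Without rt-PA+Acu replicate 3 there were 6 DEGs, Trib3, Chac1 and Ppp1r15a being added. The share of all genes that were DEGs in that fit is not given here. Ddit4 was 1.34 ± 0.46 higher on the log2 scale (edgeR adjusted p = 0.0567), and without Model replicate 3 it was 1.99 higher (adjusted p = 0.0112). DESeq2 called it with all libraries (1.34, adjusted p = 0.00671), as did 1 edgeR fit over 12 libraries (1.34, adjusted p = 0.0199).

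Against Sham, 9 members could be tested in rt-PA+Acu, since Trib3 did not pass the filter on low counts. Of these 9, 0 were DEGs, beside 2.06% of all genes, and 2, Asns and Ddit4, had an adjusted p under 0.05, beside 5.1%. With an unadjusted edgeR p under 0.05 there were 3, the third being Chac1 (log2 0.90 ± 0.36, edgeR adjusted p = 0.187). DESeq2 called 0 of the 9, beside 422 of all 12775 genes. Atf4 was at -0.16 ± 0.13 (edgeR adjusted p = 0.47) and Ddit3 at 0.07 ± 0.23 (adjusted p = 0.877). The 6 comparisons share their groups of 3 libraries and are not independent of each other.

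**Figure D2:**
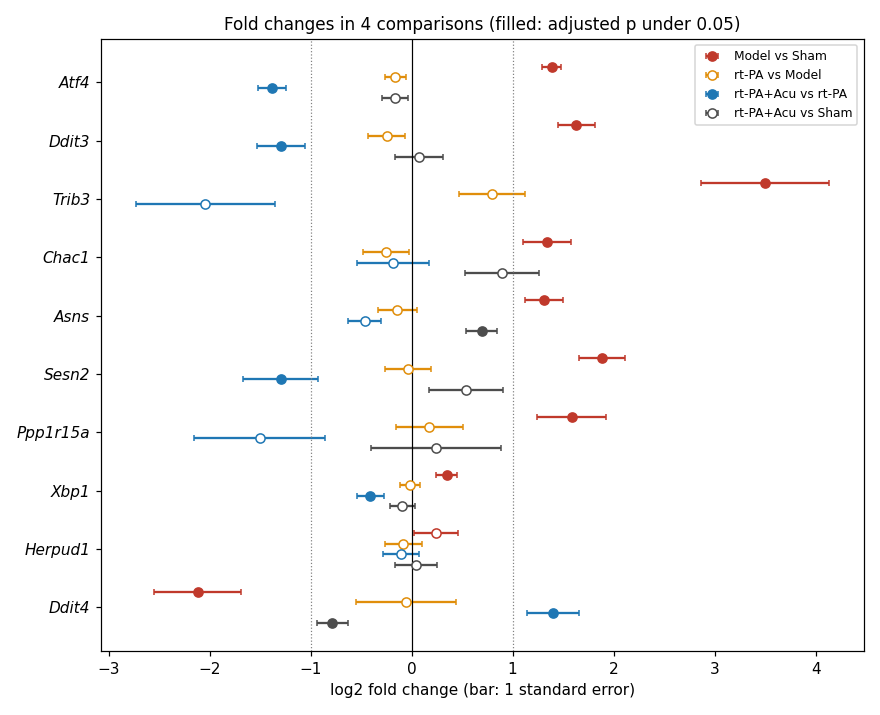
Log2 fold change of each gene in 4 comparisons, with 1 standard error; filled points had an adjusted p under 0.05 and dotted lines mark a log2 fold change of -1 and 1. Atf4 and Ddit3 stood at 1.39 and 1.63 in Model vs Sham, at -1.38 and -1.30 in rt-PA+Acu relative to rt-PA and at -0.16 and 0.07 in rt-PA+Acu vs Sham, where Trib3 was not tested.

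The spread within the rt-PA+Acu group was uneven over the members. Replicate 3 was the highest of its group for 8 of the 10 members, the exceptions being Xbp1 and Ddit4, and for 38% of 12999 genes overall. Its level was 6.99 times the mean of the other two libraries for Trib3, 5.97 times for Ppp1r15a, 2.59 times for Sesn2 and 2.43 times for Chac1, but 1.26 times for Atf4 and 1.52 times for Ddit3. In that library Atf4, at 180.4 CPM, lay inside the Sham range. The library also stood apart beyond the members. Its chi-square per degree of freedom, a measure of disagreement between 2 libraries, was 53.26 with replicate 1 and 37.45 with replicate 2. Between replicates 1 and 2 of rt-PA+Acu it was 20.84. In Model it was 37.07 and 21.25 for the pairs with replicate 3, and 13.1 between replicates 1 and 2. Model replicate 3 was the highest Model library for 9 of the 10 members, against 38.4% of genes, with Ppp1r15a at 2.39 times and Trib3 at 1.76 times the mean of the other two. In rt-PA the coefficient of variation was below 20% for 9 members, and it was 34% for Ddit4.

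**Figure D3:**
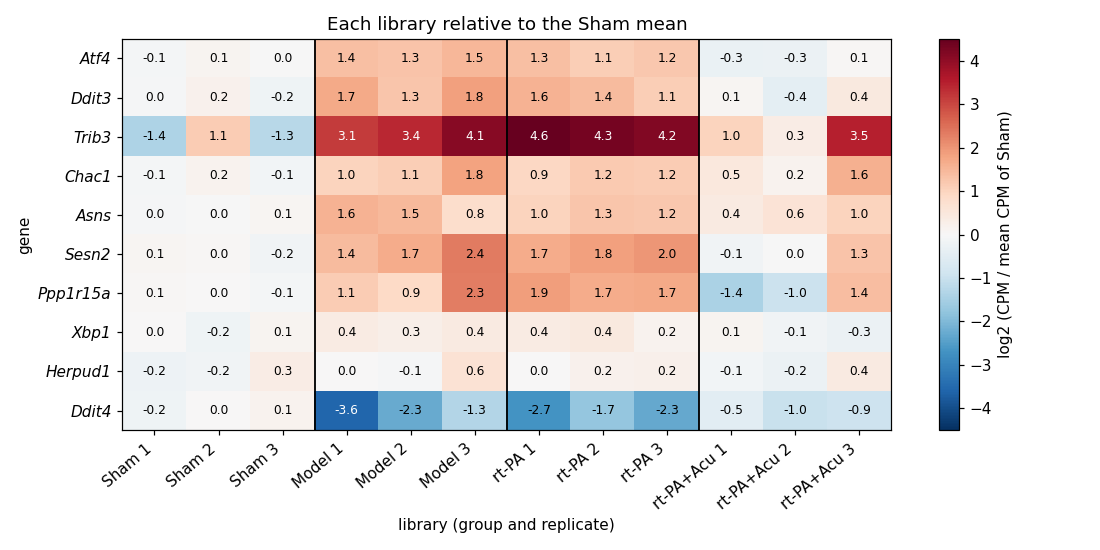
Level of each gene in each library as log2 of its CPM over the mean CPM of the Sham libraries; columns are libraries in groups of 3. In rt-PA+Acu replicate 3, Trib3 stood at 3.5, Chac1 at 1.6, Ppp1r15a at 1.4 and Sesn2 at 1.3, while Atf4 stood at 0.1.

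Other genes of the pathway were described in 5 lists, by counts from the same fits and without a test of a list. Of 11 kinases, sensors and regulators that start the response, 3 rose and 1 fell in Model vs Sham (median log2 fold change 0.24). Over all genes tested, 27.3% rose and 26.6% fell in that comparison, so that the share of these 11 that rose was the same as over all genes. Atf6, the sensor that is cleaved to a transcription factor, rose by 0.97 ± 0.087 on the log2 scale (edgeR adjusted p = 7.39e-05), from 62.6 CPM ± 1.73 SD in Sham to 122 CPM ± 7.70 SD in Model (n = 3 each). It fell in rt-PA+Acu relative to rt-PA (-0.53 ± 0.10, adjusted p = 0.00809) to 82.2 CPM ± 1.75 SD, which was still above Sham (0.39 ± 0.086, edgeR adjusted p = 0.0418). Eif2s1, which encodes eIF2α itself, was the DEG of this list in Model vs Sham (1.10 ± 0.15, adjusted p = 0.000501). Eif2ak3, which encodes the kinase PERK, was at 0.14 ± 0.098 in Model vs Sham (edgeR adjusted p = 0.271) and 0.08 ± 0.12 in rt-PA+Acu relative to rt-PA (adjusted p = 0.617). Ern1, which encodes IRE1, was at 0.24 ± 0.21 in Model vs Sham (edgeR adjusted p = 0.36). In rt-PA+Acu relative to rt-PA it fell by 0.64 on the log2 scale (edgeR adjusted p = 0.04995), barely under the threshold.

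Of 24 further ATF4 target genes, 22 were in the table and 21 were tested in Model vs Sham, where 15 rose and 4 fell (10 DEGs higher, 1 lower, median 1.00), beside 27.3% and 26.6% of all genes. The DEGs with a rise were led by Stc2, a secreted glycoprotein of the endoplasmic reticulum (3.76 ± 0.44, edgeR adjusted p = 0.000245), the transcription factor Atf3 (3.33 ± 0.90, adjusted p = 0.0136) and Mthfd2, of mitochondrial folate metabolism (2.13 ± 0.17, adjusted p = 4.05e-05). Atf3 had a Sham library at 9.18 CPM beside a lowest of 0.437 CPM. Of the 3 enzymes that make serine, Psat1 (-1.89 ± 0.20, edgeR adjusted p = 0.000141) and Phgdh (-0.85 ± 0.16, adjusted p = 0.00259) fell in Model vs Sham and Psph rose (0.68 ± 0.16, adjusted p = 0.00734). Shmt2, which uses serine, rose by 1.58 ± 0.10 (edgeR adjusted p = 1.80e-05). Phgdh and Psph were chosen after their values were seen.

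In rt-PA+Acu relative to rt-PA, 22 of these targets were tested, of which 6 fell and 3 rose (median -0.53), beside 17.7% and 17% of all genes. Atf3 fell furthest (-4.25 ± 0.47, edgeR adjusted p = 0.00153), followed by Cebpb, a partner of ATF4 and CHOP (-1.87 ± 0.45, adjusted p = 0.0175), and Psat1 rose (1.37 ± 0.28, adjusted p = 0.00959). Mthfd2 was at -1.39 ± 0.56 (edgeR adjusted p = 0.0904), with rt-PA+Acu libraries from 3.23 to 17.3 CPM. Stc2 was at -0.48 ± 0.75 (edgeR adjusted p = 0.643), with rt-PA+Acu libraries from 1.745 to 21.1 CPM beside a Sham mean of 1.60 CPM. Without rt-PA+Acu replicate 3, 14 of the 22 fell and 3 rose (median -0.75), with 7 DEGs lower in place of 2, beside 21% of all genes with a fall, 20.1% with a rise and 10.3% as DEGs with a fall. With DESeq2 on all libraries 10 fell, beside 19.5% of all genes.

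Chaperones and folding enzymes of the endoplasmic reticulum formed the next list. In Model vs Sham 13 of 16 rose and 0 fell (median 0.62), beside 27.3% and 26.6% of all genes, with P4hb, a protein disulfide isomerase, at 1.89 ± 0.10 (edgeR adjusted p = 1.07e-05) and Dnajb9, a co-chaperone, at 1.03 ± 0.084 (adjusted p = 4.66e-05). Hspa5, which encodes BiP, the main chaperone and a sensor of unfolded protein, was at 471 CPM ± 36.9 SD in Sham, 824 CPM ± 87.2 SD in Model, 748.5 CPM ± 96.1 SD in rt-PA and 421 CPM ± 38.0 SD in rt-PA+Acu (n = 3 each). It rose in Model vs Sham (0.81 ± 0.11, edgeR adjusted p = 0.000391) and fell in rt-PA+Acu relative to rt-PA (-0.83 ± 0.14, adjusted p = 0.00513). In rt-PA+Acu relative to rt-PA 12 of the 16 fell and 1 rose (median -0.52), beside 17.7% and 17% of all genes. P4hb (-1.62 ± 0.14, edgeR adjusted p = 0.00104) and Creld2 (-1.07 ± 0.24, adjusted p = 0.0134) were DEGs, and Ero1b, an oxidase of the endoplasmic reticulum, was the gene that rose (0.42 ± 0.11, adjusted p = 0.0243). Against Sham, the log2 fold change of Hspa5 in rt-PA+Acu was -0.16 ± 0.12 (edgeR adjusted p = 0.441).

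Among 14 genes of ER-associated degradation, the route that returns misfolded protein to the cytosol, 5 rose and 1 fell in Model vs Sham (median 0.33), beside 27.3% and 26.6% of all genes, and the share that rose was close to that of all genes. Syvn1, its ubiquitin ligase, rose by 0.37 ± 0.12 (edgeR adjusted p = 0.0276) and was at -0.15 ± 0.10 in rt-PA+Acu relative to rt-PA (adjusted p = 0.274), where 2 of the 14 fell and 0 rose, close to the 17.7% of all genes that fell. Relatives of the members went both ways. Trib1 rose in Model vs Sham (1.43 ± 0.10, edgeR adjusted p = 2.73e-05) and fell in rt-PA+Acu relative to rt-PA (-1.89 ± 0.15, adjusted p = 0.00104), while Trib2 fell (-1.81 ± 0.13, adjusted p = 2.68e-05) and then rose (0.97 ± 0.12, adjusted p = 0.0021). Creb3l1, a membrane-bound factor of the ATF6 kind, rose by 2.11 ± 0.23 (edgeR adjusted p = 0.000187) and fell by 1.54 on the log2 scale in rt-PA+Acu relative to rt-PA (adjusted p = 0.00552). Of the 9 relatives tested, 2 rose and 3 fell in Model vs Sham, with a median of 0.03, close to the shares of all genes (27.3% and 26.6%).

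**Figure D4:**
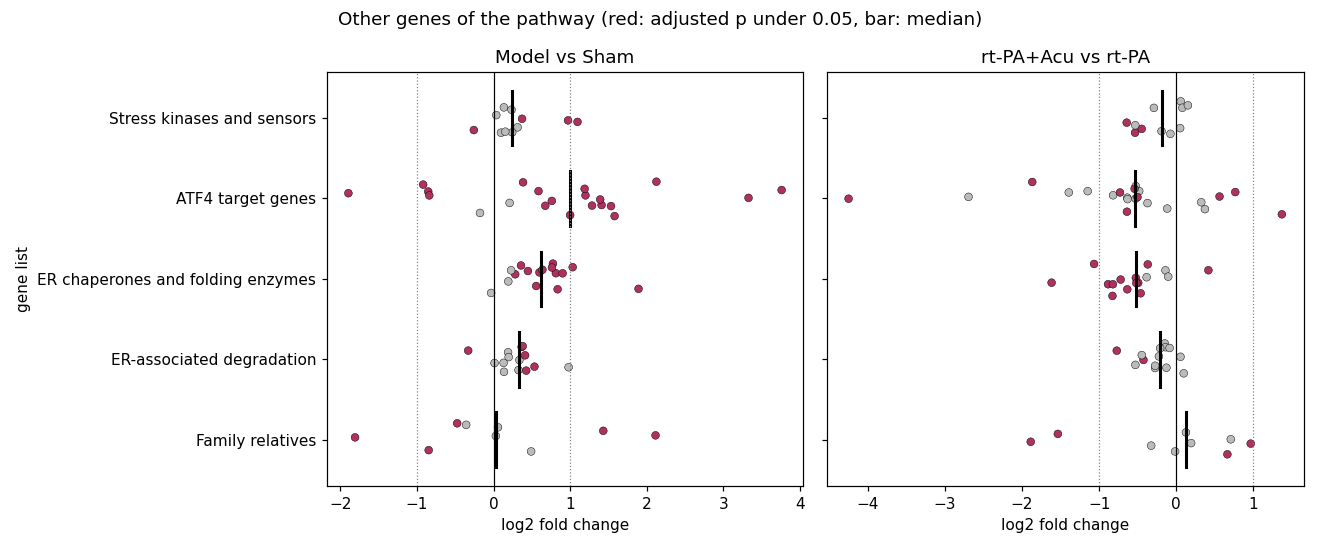
Log2 fold change of each gene on 5 lists, in Model vs Sham on the left and rt-PA+Acu relative to rt-PA on the right; each point is a gene, red where its adjusted p was under 0.05, the bar is the median of the list and dotted lines mark -1 and 1. The medians of the ATF4 targets and of the chaperones were 1.00 and 0.62 on the left and -0.53 and -0.52 on the right.

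Markers of cell types moved with the same groups, and their part in the results was not tested. The sum of 5 astrocyte markers ran from 3397 to 4072 CPM in Sham, 1602 to 1870 CPM in Model, 1368 to 1908 CPM in rt-PA and 2664 to 3458 CPM in rt-PA+Acu, and that of 5 microglial markers from 318 to 408, 152 to 182, 165 to 192 and 224 to 285 CPM. Markers of monocytes and macrophages summed to 51.2 to 65.9 CPM in Sham, 155 to 227 CPM in Model, 214 to 416 CPM in rt-PA and 28.4 to 44.5 CPM in rt-PA+Acu, with Ms4a7 at 0 in Sham and too low to be tested elsewhere. Of this list, Cd14 (6.80), Ccr2 (2.44) and Lyz2 (0.85) rose on the log2 scale in Model vs Sham. Arg1 was at -0.02 (edgeR adjusted p = 0.971). Endothelial markers, 4 of 5 in the table, summed to 95.2 to 119, 178 to 348.5, 220 to 337.5 and 60.6 to 66.1 CPM in the same order of groups. Of these 4, Kdr rose in Model vs Sham (log2 2.85, edgeR adjusted p = 2.60e-05), and Pecam1, Cdh5 and Esam were at 0.65, 0.62 and 0.35 (adjusted p = 0.185, 0.0533 and 0.422). The sum of 6 neuronal markers overlapped between groups, at 4539 to 5306, 4498 to 4755, 3592 to 4519 and 4072 to 6034 CPM, while its genes went both ways in Model vs Sham. Rbfox3 (-1.04), Slc17a7 (-0.87) and Syt1 (-0.44) fell on the log2 scale, Gad1 (0.87) and Gad2 (0.90) rose (edgeR adjusted p from 0.000159 to 0.00495), and Snap25 was at 0.28 (adjusted p = 0.0719). In rt-PA+Acu relative to rt-PA, Slc17a7 rose by 1.15, Syt1 by 0.84 and Rbfox3 by 0.80 (edgeR adjusted p from 0.012 to 0.0158). Gad1, Gad2 and Snap25 did not pass there, at -0.29, -0.41 and 0.05 (edgeR adjusted p = 0.328, 0.152 and 0.867). Oligodendrocyte markers spread within groups, from 1614 to 8281 CPM in Model and 3131 to 20700 CPM in rt-PA+Acu, where replicate 3 was the lowest. Neutrophil markers reached 81.4 CPM in rt-PA and 16.9 CPM at most in any other group, and choroid plexus markers 16.5 CPM at most, with Folr1 at 0 in Model and rt-PA and Ttr at 0 in rt-PA+Acu. A list for plasma cells, whose secretory load engages XBP1, summed to 1.29 to 3.06 CPM in Sham, 123 to 328 CPM in Model, 148 to 273 CPM in rt-PA and 3.32 to 20.3 CPM in rt-PA+Acu. Sdc1 was higher by 7.49 on the log2 scale in Model vs Sham, where Jchain, Mzb1 and Cd79a were too low to be tested. Mzb1 was too low in every comparison, and Cd79a was at 0 in Sham. In rt-PA+Acu relative to rt-PA, Sdc1 was at -4.55 and Jchain at -0.05 (edgeR adjusted p = 0.0036 and 0.944). None of 3 red blood cell markers was in the table.

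By the root mean square distance between centred log2(CPM + 1) profiles over the 12 libraries, Atf4 and Ddit3 were the 2 closest members (0.19). This distance reflects the size of the changes as well as their shape. Trib3 was closest to Sesn2 (0.31), and Xbp1 to Herpud1 (0.29), while Ddit4 was at least 1.14 from every other member. The distance of Xbp1 to Herpud1 exceeded the spread of each gene around its own mean (0.22 and 0.26). Among 12744 genes with a mean of at least 1 CPM, those nearest to Atf4 were Rassf1 (0.12), Cystm1 (0.14) and Ifrd1 (0.14), and those nearest to Ddit3 were Cystm1 (0.19), Bean1 (0.19) and Bach1 (0.20). Prpf18 (0.07), Ric8a (0.09) and Pde7a (0.10) were nearest to Xbp1, whose own profile varied little (0.22). These distances describe 12 libraries in 4 groups and come with no test.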

How the data were processed

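Poly(A) RNA of rat cortex was sequenced as 12 stranded paired-end libraries of 150 bases. The authors aligned reads to mRatBN7.2 with STAR (2.7.10a in the submitters' notes) and counted uniquely mapped pairs on Ensembl genes with Salmon 1.9.0, and the notes also list featureCounts 2.0.1. The deposited counts are raw and whole, 1 value for each gene symbol and library. Use of the adapters' molecular identifiers, the strand setting and the annotation release are not given in the sources used here, so counting limits cover counting error only.

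Libraries were grouped by their labels, and 1 library per sample was taken as a replicate. Where labels do not name the rat, p-values measure the spread between libraries. Counts were tested in R 4.3.3 with edgeR 4.0.16 (TMM, filterByExpr, glmQLFTest, Benjamini-Hochberg over all genes tested), pair by pair on 6 libraries. SE is the log2 fold change over the square root of F. CPM used TMM over all 12 libraries, with 11678450 to 13616935 counts each. The fits were tested on simulated data. No 2 libraries of a group agreed within sampling noise (chi-square per degree of freedom 9.01 or more). The alternatives were DESeq2 1.42.0, RLE or library size alone, 2 other filters, 1 fit over 12 libraries, a replicate block, no fold threshold and the omission of each library. List counts with DESeq2 or without Model or rt-PA+Acu replicate 3 were added after seeing the data. The members and lists were chosen with earlier results of these data known. Named from each list were up to 5 DEGs with the largest change in Model vs Sham or rt-PA+Acu vs rt-PA and its best known genes, of which the text gives a part, and for likeness the 3 nearest genes. Phgdh, Psph, Ero1b and the marker genes were named after their values were seen. Plots were drawn with matplotlib 3.10.9.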

Additional observations from a re-analysis of the deposited data

How the results depend on the processing

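Of 763 values of single members under an alternative, 717 kept their direction and their side of the DEG thresholds, 9 lost a call, 11 gained one, 25 changed sign where neither value was called, and 1 reversed. The reversal was Ppp1r15a in rt-PA+Acu vs Sham, at -1.19 without rt-PA+Acu replicate 3, and its leave-one-out values ran from -1.19 to 0.67. All 9 lost calls were those of Sesn2 without 1 library. When each library was left out in turn, the number of members called ran from 2 to 6 in rt-PA+Acu vs Model and from 0 to 1 in rt-PA+Acu vs Sham, the highest being without rt-PA+Acu replicate 3 in both, and from 3 to 6 in rt-PA+Acu vs rt-PA. In rt-PA+Acu vs rt-PA without rt-PA+Acu replicate 3, 10.3% of all genes were DEGs with a fall. For the other fits of these ranges the share of all genes is not given here. Without a fold threshold, 2 members passed in rt-PA+Acu vs Sham. On the lists, the ATF4 targets called in rt-PA+Acu vs rt-PA went from 3 to 5 with DESeq2 and to 8 without rt-PA+Acu replicate 3, which also gave 1 call of ER-associated degradation in place of 0, and without Model replicate 3 the kinases and sensors called in Model vs Sham went from 1 to 2. Over all genes, rt-PA vs Model had 0 DEGs, 74 with DESeq2 and 2 in 1 fit over all libraries, and rt-PA+Acu vs Sham had 263, or 422 with DESeq2. Library size alone moved the median of all genes by up to 0.15, in rt-PA vs Sham, and changed no member's DEG call. With the replicate number as a block, 8, 0, 4, 4, 8 and 0 members were called in Model vs Sham, rt-PA vs Model, rt-PA+Acu vs rt-PA, rt-PA+Acu vs Model, rt-PA vs Sham and rt-PA+Acu vs Sham. Over all genes tested, in the same order, the block gave 2756 of 12884, 0 of 12941 and 1862 of 12999 as DEGs. It then gave 1501 of 12855, 2913 of 13023 and 194 of 12775. Without the block, rt-PA+Acu vs Model had 1866 DEGs. At an adjusted p under 0.05 with no fold threshold, Asns and Ddit4 in rt-PA+Acu vs Sham did not pass in 1 fit over all libraries (adjusted p = 0.0581 and 0.255) or with the block (0.0595 and 0.0763), and Xbp1 in rt-PA+Acu vs rt-PA did not pass without a filter (0.0542) or with the block (0.05199). The block also ended it in rt-PA+Acu vs Model (0.0728) and in rt-PA vs Sham (0.0906), where it did not pass without a filter either (0.0531), and Asns in rt-PA+Acu vs Sham did not pass with library size alone (0.0549). The block added Ppp1r15a in rt-PA+Acu vs Model (-1.73, edgeR adjusted p = 0.0264) and ended no DEG call. Deviations of same-numbered libraries correlated between -0.30 and 0.20. The labels give these libraries only a shared number, and whether they also shared a batch was not tested. The filter of 10 counts in every library left Trib3 out. The cause of these shifts was not tested. With 3 libraries a group, differences as small as those of Herpud1 could not be resolved, and with 1 to 6 counts of Trib3 in Sham its folds are imprecise.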
